A study of Homo sapiens with 15 samples.

Results

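The platelet-derived growth factor (PDGF) system was followed in 143B, an established human osteosarcoma cell line, together with the matrix gene POSTN. The 7 genes were PDGFA, PDGFB, PDGFC and PDGFD, which encode the ligand chains, PDGFRA and PDGFRB, which encode the receptors, and POSTN, which encodes periostin. They were taken by gene symbol from the 62700 genes of the count tables. The ligand and receptor genes form a family, but PDGFRB and POSTN were picked on their values, because they were higher with each of the PDK1 hairpins than with the control hairpin. Their levels in the hairpin libraries are therefore described without a test. Of the 7 genes, 6 had enough counts to be tested between OSCs and non-OSCs (POSTN did not) and 7 passed the filter on low counts in the hairpin libraries.

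RNA was sequenced from 15 libraries, 3 for each of 5 conditions, all of 143B. OSCs, the osteosarcoma stem-like cells, were grown as tumorspheres in DMEM/F12 with B27, EGF and bFGF, and non-OSCs were grown attached in DMEM with serum. The genotype of both is given as WT. The other 3 conditions were 143B cells in tumor spheroid culture that carried a lentiviral hairpin RNA, which directs the breakdown of a matching mRNA: shCtrl (genotype given as WT), shPDK1#1 (genotype shPDK1_1) or shPDK1#2 (genotype shPDK1_2). PDK1 here is pyruvate dehydrogenase kinase 1, which limits the entry of pyruvate into mitochondrial oxidation. Culture format and medium differed together between OSCs and non-OSCs, so that neither can be told apart from the cell state. In bulk RNA, fewer cells that express a gene and less RNA per cell cannot be told apart either.

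PDGF chains pair into dimers that cross-link receptors on the cell surface. The receptor chain PDGFRα binds dimers of the A, B and C chains, and PDGFRβ binds mainly B and D chains. The A and B chains are cut to their active form inside the cell by proprotein convertases, whereas the C and D chains are secreted with a CUB domain that proteases such as tPA and urokinase remove outside the cell. Bound receptors phosphorylate themselves and recruit SH2 proteins of the RAS, PI3K and PLCγ pathways. They are known for driving the growth and migration of mesenchymal cells, among them pericytes, fibroblasts and bone precursors. Periostin is a secreted matrix protein of periosteum and other collagen-rich tissue that binds integrins, collagen I, fibronectin and tenascin-C.

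The upstream sequences of PDGFRB and POSTN are shown because these genes were higher with both hairpins and their start regions differ in base composition. The sequences come from RefSeq on GRCh38.p14, read 5′ to 3′ along the gene, with matches to searched motifs in capitals. For PDGFRB, chr5:150155873-150156095 on the minus strand (223 bases, 58.3% G or C) ends 27 bases before the RefSeq start, and the capitals mark a reversed GC box (searched as GGGCGG) and a CCAAT box. For POSTN, chr13:37598845-37599018 on the minus strand (174 bases, 32.2% G or C) ends 76 bases before the start, and the capitals mark a reversed AP-1 motif (searched as TGACTCA) and a reversed TATA motif (searched as TATAAA).
PDGFRB: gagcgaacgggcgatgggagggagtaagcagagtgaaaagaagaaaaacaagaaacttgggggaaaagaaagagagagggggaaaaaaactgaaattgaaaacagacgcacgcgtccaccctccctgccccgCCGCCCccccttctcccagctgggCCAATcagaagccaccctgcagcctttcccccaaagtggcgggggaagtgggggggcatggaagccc
POSTN: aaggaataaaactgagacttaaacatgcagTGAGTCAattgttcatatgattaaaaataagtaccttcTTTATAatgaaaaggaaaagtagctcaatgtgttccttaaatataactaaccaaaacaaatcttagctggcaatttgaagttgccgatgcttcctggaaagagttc
The motifs were searched on both strands of the 250 bases before each start. The PDGFRB matches lay at −118 (GC box) and −94 (CCAAT). Over 35114 RefSeq promoters, 42.6% held a GC box and 32% a CCAAT box. In POSTN the AP-1 motif, held by 4.2% of promoters, lay at −220, and TATA motifs, held by 10.7%, lay at −182 and −29. The TATA motif at −29 falls in bases that GENCODE 44 annotates as an exon and is not printed. A search for the E-box CACGTG, the cyclic AMP element TGACGTCA and the TEAD motif GGAATG gave no match in either sequence. These are matches of letters only, and no binding was measured.

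Expected counts per library summed to between 7992505 and 11256530, and levels are given as CPM, which divide each count by its library size after TMM normalization. The factors of that normalization lay between 0.981 and 1.02, and 3 counts corresponded to 0.268 to 0.373 CPM. PDK1 itself, the targeted gene, had 44.4 to 46.7 CPM with shCtrl, 27.3 to 29.0 with shPDK1#1 and 18.3 to 21.5 with shPDK1#2, so that 62.0% and 43.7% of the shCtrl level remained. Differences are given as log2FC, the log2 of the fold change fitted by edgeR, with its standard error (SE). A gene was called at a Benjamini-Hochberg adjusted p under 0.05 over all genes tested by the quasi-likelihood method of that tool. The labels do not say whether replicates were separate cultures, so p-values measure the spread between these libraries, which may be technical. Differences between the groups of one table were tested, and the levels of OSCs and non-OSCs are not compared with those of the hairpin libraries, whose table was made separately.

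Between OSCs and non-OSCs, 3 of the 4 ligand genes and PDGFRA were higher in OSCs. PDGFB showed the widest difference, 27.3-fold, followed by PDGFA (3.62-fold), PDGFRA (2.13-fold) and PDGFC (1.88-fold). PDGFD and PDGFRB stayed near 2 CPM in both groups and were not called. In all, 4 of the 6 genes tested were called and each of the 4 was higher, in a comparison where 63.9% of 14287 genes were called and 32.4% were called higher.

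**Figure D1:**
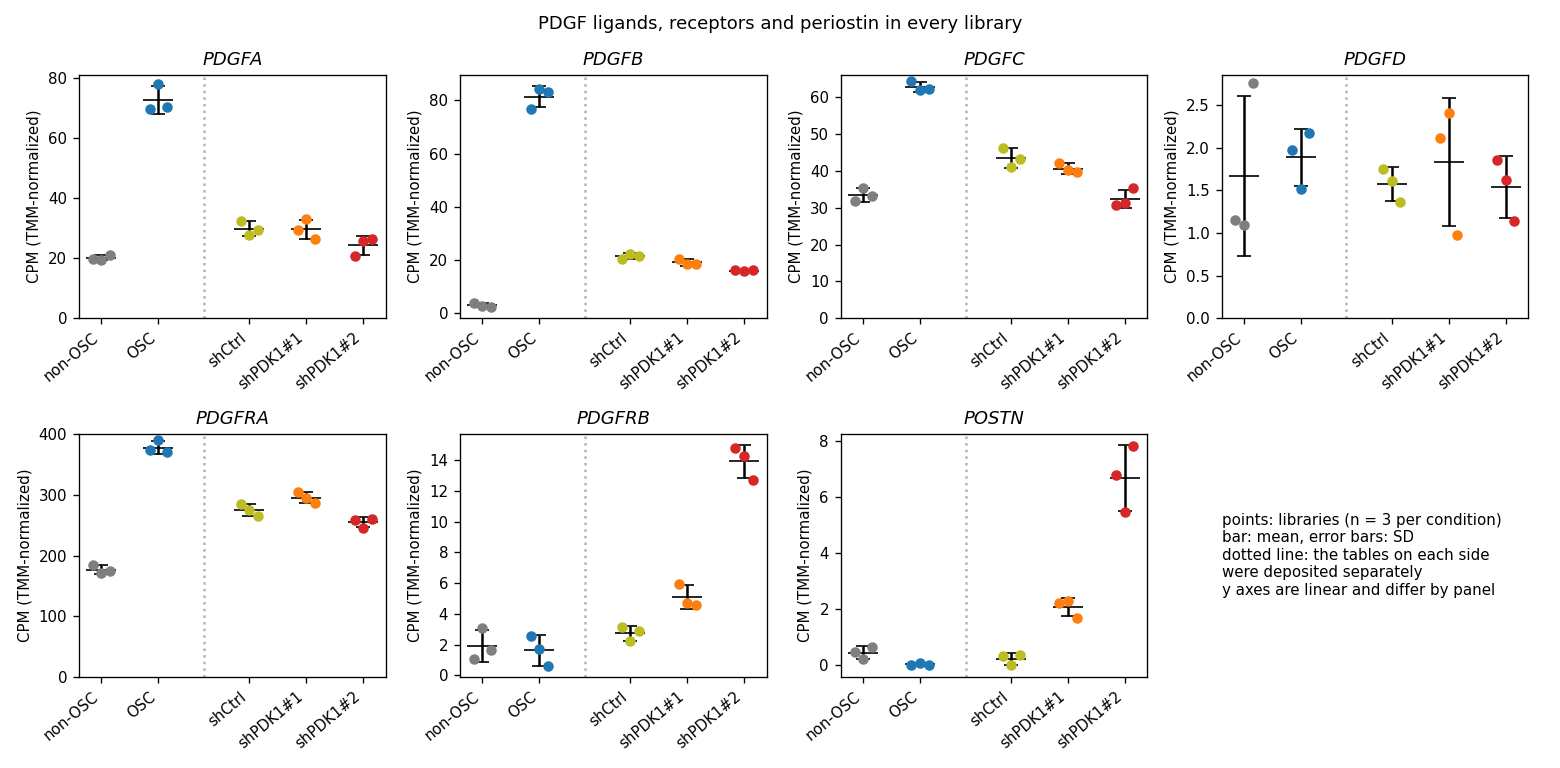
Expression of the 7 genes in CPM in each library (points), with the mean and SD of 3 libraries per condition. Each panel has its own linear axis, and a dotted line separates OSCs and non-OSCs from the hairpin libraries, which were deposited in another table. PDGFA, PDGFB, PDGFC and PDGFRA sit higher in OSCs than in non-OSCs, and PDGFRB and POSTN are highest with shPDK1#2.

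PDGFB (ENSG00000100311.17, chromosome 22, 39223359 to 39244982 on GRCh38, minus strand, 7 exons) encodes the B chain, a ligand of both receptors. It had 3.76, 2.63 and 2.42 CPM in non-OSC replicates 1, 2 and 3, from 22 to 39 counts, and 76.9, 84.3 and 83.2 CPM in OSC replicates 1, 2 and 3, from 624 to 833 counts. The groups were far apart, and the lowest OSC library stood above every non-OSC library. The means were 2.94 ± 0.72 and 81.5 ± 4.0 CPM (SD, n = 3 each), and the log2FC was 4.77 (SE 0.126, adjusted p = 3.52e-18 from edgeR).

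PDGFA (ENSG00000197461.13, chromosome 7, 497258 to 520296, minus strand, 6 exons) encodes the A chain, which binds PDGFRα. Its level was 19.9, 19.5 and 21.1 CPM in non-OSC replicates 1 to 3 and 69.6, 78.2 and 70.4 CPM in OSC replicates 1 to 3, with no overlap. The log2FC was 1.86 (SE 0.086, adjusted p = 4.16e-14 from edgeR).

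PDGFC (ENSG00000145431.11, chromosome 4, 156760454 to 156971799, minus strand, 6 exons), whose product needs cleavage outside the cell, had 31.8, 35.5 and 33.1 CPM in the non-OSC libraries. In the OSC libraries it had 64.3, 61.8 and 62.2 CPM, again apart from every non-OSC library. Its log2FC of 0.91 (SE 0.078, adjusted p = 1.41e-09 from edgeR) was the smallest of the ligand genes called.

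PDGFD (ENSG00000170962.13, chromosome 11, 103907189 to 104164379, minus strand, 7 exons), the ligand that binds PDGFRβ, was close to the limit of what these libraries resolve. It had 10 to 25 counts per non-OSC library and 15 to 18 per OSC library, or 1.67 ± 0.94 and 1.89 ± 0.34 CPM (SD, n = 3 each). The spread of the non-OSC libraries covered all OSC libraries, and a difference was not detectable at this depth (log2FC 0.18, SE 0.407, adjusted p = 0.719 from edgeR). The gene DDI1 lies opposite 4.53% of the PDGFD exons, and the strandedness of the libraries is not given in the sources used here.

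PDGFRA (ENSG00000134853.12, chromosome 4, 54229280 to 54298245, plus strand, 23 exons) was the most abundant of the 7 genes in every condition. It had 184.9, 170.7 and 175.4 CPM in non-OSC replicates 1, 2 and 3 and 374.3, 389.9 and 369.8 CPM in OSC replicates 1, 2 and 3. Every OSC library was above every non-OSC library, with a log2FC of 1.09 (SE 0.048, adjusted p = 1.55e-14 from edgeR). A gene with no symbol, ENSG00000282278, shares 16.1% of the PDGFRA exon bases on the same strand and 15% of its stretches of 75 bases, and it was listed at 0 counts in all 15 libraries.

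PDGFRB (ENSG00000113721.14, chromosome 5, 150113839 to 150155872, minus strand, 23 exons) was scarce in both culture formats. Replicates 1, 2 and 3 of non-OSCs had 1.06, 3.07 and 1.65 CPM, and those of OSCs had 2.59, 1.72 and 0.604 CPM. The groups overlapped, and no difference was detectable (log2FC −0.22, SE 0.462, adjusted p = 0.699 from edgeR). The sign rested on single libraries, since the log2FC was 0.28 without non-OSC replicate 2 and 0.17 without OSC replicate 3.

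POSTN (ENSG00000133110.15, chromosome 13, 37562583 to 37598844, minus strand, 23 exons) was barely detected in OSCs and non-OSCs. It had 5, 2 and 6 counts in non-OSC replicates 1, 2 and 3 and 0, 1 and 0 counts in the OSC libraries, so that it did not pass the filter and was not tested. Scaled to library size, the OSC level was 0.0837 times the non-OSC level, with an exact 95% interval of 0.00197 to 0.557 that covers counting error only.

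PDGFRA transcripts far outnumbered those of PDGFRB. Levels of different genes were compared as CPM per kb of the canonical transcript. On this scale PDGFRA stood at 59.3 ± 1.66 and PDGFRB at 0.287 ± 0.174 in OSCs (SD, n = 3 each). PDGFRB made up 0.638% to 1.97% of the receptor transcripts in non-OSC libraries and 0.183% to 0.768% in OSC libraries, and the groups overlapped.

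The ligand genes summed to 15.9 ± 0.381 CPM per kb in non-OSCs and 62.6 ± 2.27 in OSCs (SD, n = 3 each). PDGFB accounted for 4.98% of that sum in non-OSCs and for 34.9% in OSCs. The share of PDGFC was 46.1% in non-OSCs and 22.0% in OSCs, and that of PDGFA was 46.2% and 42.4%. In non-OSCs the order of the levels was PDGFRA, PDGFA, PDGFC, PDGFB, PDGFD, PDGFRB and POSTN, in which PDGFA (7.34 ± 0.297 CPM per kb) and PDGFC (7.32 ± 0.405) did not differ beyond their spread, nor did PDGFD and PDGFRB. In OSCs PDGFB (21.9 ± 1.07 CPM per kb) ranked between PDGFA (26.5 ± 1.73) and PDGFC (13.7 ± 0.294), and the SDs of PDGFD (0.492 ± 0.088) and PDGFRB (0.287 ± 0.174) overlapped. With the length of all annotated exons in place of the canonical transcript, PDGFB (20.4 CPM per kb) ranked above PDGFA (15.9) in OSCs, and PDGFC (5.58) above PDGFA (4.39) in non-OSCs.

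**Figure D2:**
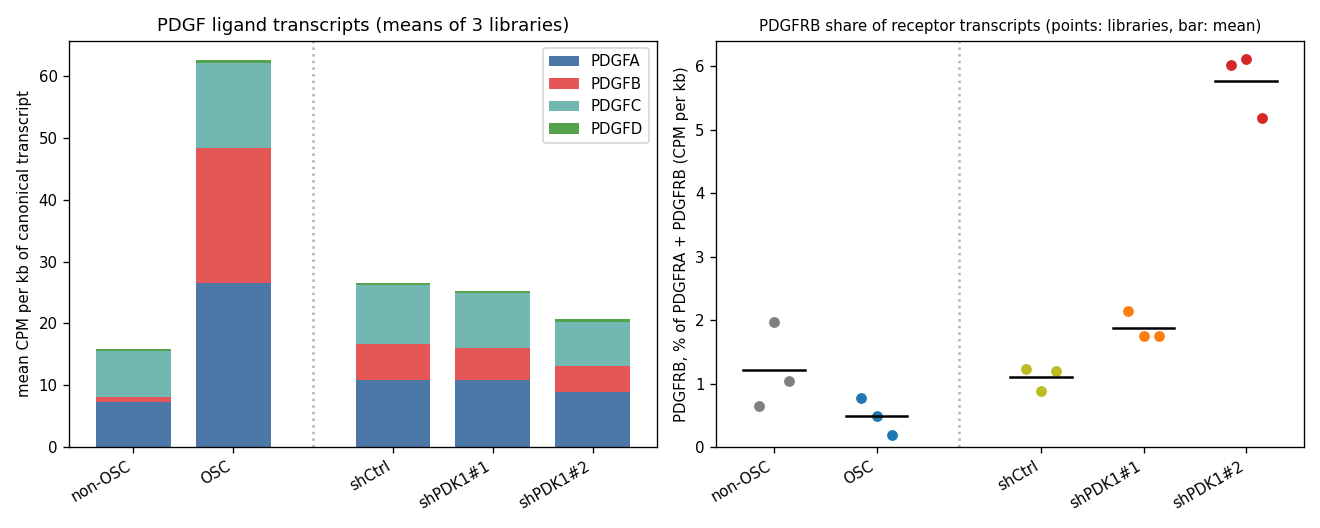
Left, mean CPM per kb of canonical transcript of the 4 ligand genes, stacked, for each condition (means of 3 libraries). Right, PDGFRB as a percentage of PDGFRA plus PDGFRB on the same scale, with points for libraries and bars for means. The PDGFB segment is 4.98% of the ligand sum in non-OSCs and 34.9% in OSCs, and the PDGFRB share reaches 5.18% to 6.11% with shPDK1#2.

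With the hairpins, the question was how these genes stood when PDK1 was lowered in spheroid culture. PDGFA, PDGFB and PDGFC were lower with shPDK1#2 than with shCtrl, at 74.4% to 81.5% of its level, and PDGFD and PDGFRA were not called. With shPDK1#1, neither the ligand genes nor PDGFRA were called. PDGFRB and POSTN, chosen for their rise, stood lowest with shCtrl, higher with shPDK1#1 and highest with shPDK1#2.

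Of the 5 genes that could be tested, 0 were called with shPDK1#1 by edgeR and 0 by DESeq2, and 1 (PDGFRA) had an unadjusted p under 0.05. Over all 14574 genes, edgeR called 3.06% with this hairpin, and 14.5% had an unadjusted p under 0.05. With shPDK1#2, 3 of the 5 were called and all 3 were lower. Over all genes with this hairpin, 26.2% were called and 14.2% were called lower. Between the hairpins, 2 of the 5 were called and both were lower with shPDK1#2, beside 16.3% of all genes called and 9.78% called lower. The comparisons with shCtrl share the same 3 control libraries.

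In the order of replicates, PDGFB levels were 20.5, 22.4 and 21.6 CPM for shCtrl, 20.5, 18.3 and 18.5 for shPDK1#1 and 16.3, 15.7 and 16.2 for shPDK1#2. All shPDK1#2 libraries were below all others, while shPDK1#1 replicate 1 reached into the range of shCtrl. The log2FC was −0.42 with shPDK1#2 (SE 0.103, adjusted p = 0.00287 from edgeR) and −0.18 with shPDK1#1 (SE 0.101, adjusted p = 0.462).

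PDGFC was also lower with shPDK1#2. Its levels were 46.3, 41.0 and 43.2 CPM for shCtrl, 42.2, 40.1 and 39.6 for shPDK1#1 and 30.7, 31.2 and 35.2 for shPDK1#2, in the order of replicates. No shPDK1#2 library reached another group, whereas shPDK1#1 and shCtrl overlapped. The log2FC was −0.43 with shPDK1#2 (SE 0.081, adjusted p = 0.000247 from edgeR) and −0.10 with shPDK1#1 (SE 0.080, adjusted p = 0.631), and the hairpins differed from each other (log2FC −0.33, SE 0.082, adjusted p = 0.0059).

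PDGFA was lower with shPDK1#2 by a narrow margin. It had 32.6, 27.6 and 29.3 CPM in shCtrl replicates 1, 2 and 3, 29.5, 33.0 and 26.5 for shPDK1#1 and 20.7, 25.8 and 26.5 for shPDK1#2. The shPDK1#2 libraries lay below all others, the highest of them (26.46 CPM) just under the lowest shPDK1#1 library (26.53 CPM). Against shCtrl, the difference was called (log2FC −0.30, SE 0.106, adjusted p = 0.0388 from edgeR). The call was lost with DESeq2 (adjusted p = 0.0747) and without shCtrl replicate 1 (0.188), shCtrl replicate 3 (0.0714) or shPDK1#2 replicate 1 (0.245).

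PDGFD had 11 to 23 counts in each of the 9 hairpin libraries and overlapped in all of them. Its mean was 1.58 ± 0.196 CPM with shCtrl, 1.84 ± 0.753 with shPDK1#1 and 1.54 ± 0.364 with shPDK1#2 (SD, n = 3 each). The log2FC values against shCtrl were 0.19 (SE 0.403, adjusted p = 0.897) and −0.03 (SE 0.407, adjusted p = 0.968 from edgeR), with errors too wide at this depth to show a change of the size seen in the other ligand genes.

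PDGFRA moved little. It had 284.8, 275.9 and 265.2 CPM in shCtrl replicates 1, 2 and 3, 305.5, 295.0 and 286.5 for shPDK1#1 and 258.8, 245.2 and 260.2 for shPDK1#2. All shPDK1#1 libraries lay above shCtrl and all shPDK1#2 libraries below it, and neither difference was called (log2FC 0.10, SE 0.043, adjusted p = 0.25, and −0.11, SE 0.043, adjusted p = 0.0539 from edgeR). The direct comparison of the hairpins was called, with a log2FC of −0.21 in shPDK1#2 against shPDK1#1 (SE 0.043, adjusted p = 0.000708). The difference from shCtrl with shPDK1#2 crossed the threshold in 5 of 15 alternatives, such as normalization by library size alone (adjusted p = 0.0343) and the fit without shCtrl replicate 3 (0.0428).

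PDGFRB had 29, 22 and 23 counts with shCtrl, 48, 45 and 51 with shPDK1#1 and 159, 141 and 122 with shPDK1#2. In CPM these were 3.18, 2.21 and 2.86, then 5.97, 4.71 and 4.56, then 14.8, 14.3 and 12.7. The groups did not overlap, on values that were used to choose the gene, and the means came to 185% and 507% of shCtrl. The fitted log2FC values were 0.88 (SE 0.219) with shPDK1#1 and 2.35 (SE 0.191) with shPDK1#2, and no test was made.

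POSTN had 3, 0 and 3 counts in shCtrl replicates 1, 2 and 3, 18, 22 and 19 with shPDK1#1 and 73, 54 and 75 with shPDK1#2. The highest library had 7.81 CPM, so that the gene remained scarce where it was highest. From the summed counts, the level was 9.27 times that of shCtrl with shPDK1#1 and 30.2 times with shPDK1#2, on values that were used to choose the gene. Because shCtrl held 6 counts in all, these ratios are loose, and no test was made. The level with shPDK1#2 was 3.26 times that with shPDK1#1.

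**Figure D3:**
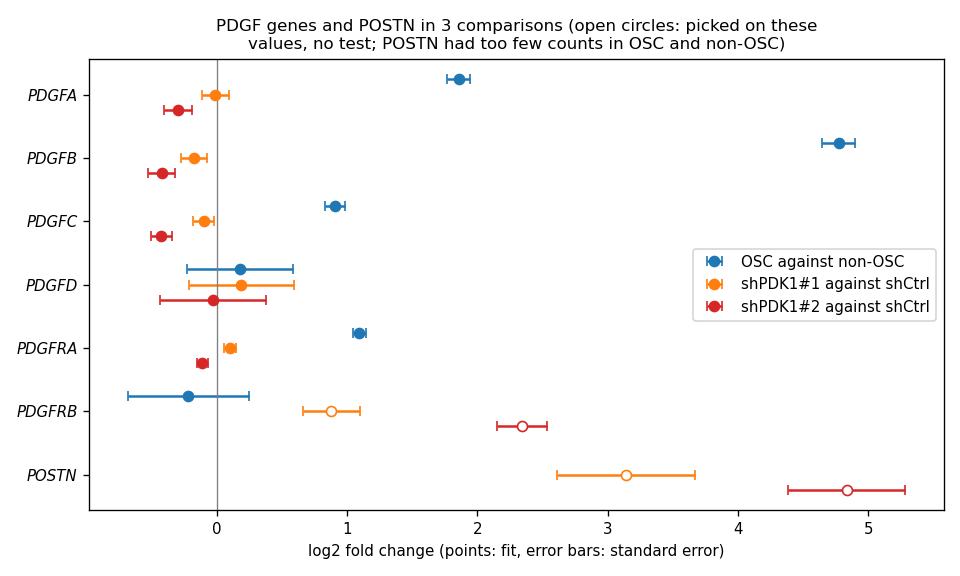
Log2FC of the 7 genes in each hairpin against shCtrl, and of 6 of them in OSCs against non-OSCs, where POSTN had too few counts and has no point (bars are standard errors). Filled points were tested, and open points are PDGFRB and POSTN with the hairpins, picked on these values. PDGFB lies at 4.77 in OSCs, the ligand genes lie below 0 with shPDK1#2 (PDGFD within its error of 0), and PDGFRB and POSTN lie to the right with both hairpins.

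PDGFRA remained the larger part of the receptor transcripts throughout. PDGFRB made up 1.10% of receptor transcripts per kb with shCtrl, 1.88% with shPDK1#1 and 5.77% with shPDK1#2 (means of 3 libraries). The ligand sum was 26.6 ± 1.27 CPM per kb with shCtrl, 25.3 ± 1.53 with shPDK1#1 and 20.7 ± 1.44 with shPDK1#2 (SD, n = 3 each). Within it, PDGFB made up between 20.3% and 21.8%, and PDGFC between 34.3% and 35.8%, in the 3 group means. With shPDK1#2, PDGFRB (2.44 ± 0.191 CPM per kb) and POSTN (2.03 ± 0.357) did not differ beyond their spread, and both stood above PDGFD (0.402 ± 0.095) and below PDGFB (4.30 ± 0.087). With shCtrl, PDGFRB (0.482 ± 0.087) and PDGFD (0.411 ± 0.051) did not differ beyond their spread, and POSTN (0.0709 ± 0.062) was last. With shPDK1#1, PDGFRB (0.891 ± 0.136) ranked next below PDGFB (5.13 ± 0.329), and the SDs of POSTN (0.630 ± 0.101) and PDGFD (0.478 ± 0.196) overlapped. These orders depend on the length used. Per kb of all annotated exons, PDGFRB was at 1.952 and POSTN at 1.225 with shPDK1#2. With shPDK1#1, PDGFD (0.4304) then ranked above POSTN (0.3806).

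Other genes that act with these proteins were counted in 5 lists of 67 genes. The lists hold the proteases that process PDGF chains, effectors of the active receptors, attenuators of the receptors, related ligands and receptors, and a paralog, receptors and matrix partners of periostin. Of the 60 genes tested between OSCs and non-OSCs, 30 were higher and 15 lower in OSCs, which is 75% called beside 63.9% of all genes, with a median log2FC of 0.24 beside −0.0053 over all genes. Of the 61 tested with the hairpins, 5 were higher and 5 lower with shPDK1#1 (16.4% beside 3.06%) and 8 higher and 22 lower with shPDK1#2 (49.2% beside 26.2%). Among those 8 was COL1A2, named after its values were seen. It passed the filter on low counts only through its level with shPDK1#2, so its call was favored toward a rise. Without shPDK1#1 replicate 3, the 10 called with shPDK1#1 fell to 5. The medians were 0.0072 with shPDK1#1 and −0.069 with shPDK1#2, beside 0.0024 and 0.0083 over all genes. The counts of single lists below are read beside the same shares of all genes called.

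Among the proteases, 3 of 6 tested were higher and 2 lower in OSCs, where 63.9% of all genes were called. PLAU, which encodes urokinase, fell from 519.4 to 79.5 CPM (log2FC −2.71, SE 0.057, adjusted p = 8.39e-20 from edgeR), and PCSK5, a proprotein convertase gene, rose from 16.0 to 32.6 CPM. PCSK6 was lower, at 11.2 against 16.0 CPM. With shPDK1#1, 0 of 6 were called by edgeR and 0 by DESeq2, and 1 had an unadjusted p under 0.05. With shPDK1#2, PLAU fell from 86.3 to 47.4 CPM and FURIN, a convertase of the A and B chains, from 219.7 to 187.8 CPM, while PLAT, which encodes tPA, rose from 98.6 to 124.8 CPM.

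Of the 22 receptor effectors, 9 were higher and 2 lower in OSCs, 1 was higher and 1 lower with shPDK1#1, and 0 were higher and 5 lower with shPDK1#2. Over all genes, 63.9%, 3.06% and 26.2% were called in these comparisons. The effectors called in OSCs and with shPDK1#2 were not more than those shares. SOS2, an exchange factor for RAS, rose most in OSCs (from 32.0 to 60.2 CPM), followed by the PI3K subunit gene PIK3R2 (from 66.3 to 110.5 CPM) and the SRC family kinase gene FYN (from 54.2 to 83.8 CPM). The kinase gene YES1 fell from 233.2 CPM with shCtrl to 202.1 with shPDK1#1 and 154.4 with shPDK1#2, and STAT3 rose from 127.7 to 147.9 CPM with shPDK1#1. PIK3CA (from 58.3 to 43.4 CPM) and FYN (from 77.4 to 59.2 CPM) were lower with shPDK1#2. The count of 2 with shPDK1#1 fell to 0 without shCtrl replicate 1 or 2 or shPDK1#1 replicate 3, and to 1 without shCtrl replicate 3 or shPDK1#1 replicate 2.

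The attenuators split evenly in OSCs, 3 higher and 3 lower of 7, where 63.9% of all genes were called. LRP1, an endocytic receptor that binds PDGFRβ, rose from 71.8 to 213.8 CPM, and CBLB, a ubiquitin ligase gene, from 12.2 to 24.3 CPM, whereas the phosphatase gene PTPN2 fell from 46.1 to 32.5 CPM. With shPDK1#1, 0 of the 7 were called by edgeR and 0 by DESeq2, and 1 had an unadjusted p under 0.05. With shPDK1#2, CBL fell from 176 to 143.8 CPM and PTPN12 from 181 to 160.2 CPM, and PTPN2 rose from 40.9 to 48.3 CPM. PTPN1, a phosphatase gene named after its values were seen, was also lower (log2FC −0.17), a call lost without shCtrl replicate 1 or 3 or shPDK1#2 replicate 3 (adjusted p = 0.0599 to 0.0791 from edgeR). These were small changes, and without shCtrl replicate 1 the attenuators called with shPDK1#2 fell from 4 to 1, and without shPDK1#2 replicate 3 to 2.

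Among related ligands and receptors, 7 were higher and 5 lower of 13 in OSCs, beside 63.9% of all genes called. KIT, which encodes the stem cell factor receptor of the same receptor class, fell from 9.30 to 1.79 CPM and PGF, a placental growth factor gene, from 11.7 to 5.29 CPM, while FLT1, a VEGF receptor gene, rose from 73.7 to 140.7 CPM. With the hairpins, NRP2, a VEGF co-receptor gene, stood at 255.2 CPM with shCtrl, 215.1 with shPDK1#1 and 127.9 with shPDK1#2. FLT1 stood at 75.7, 63.1 and 46.0 CPM in the same order, and each of these falls was called, although that of FLT1 with shPDK1#1 was not without shCtrl replicate 1 or 2 or shPDK1#1 replicate 2 or 3 (adjusted p between 0.0727 and 0.188). VEGFA rose from 139.8 to 182.7 CPM with shPDK1#1, and was also called higher with shPDK1#2 (log2FC 0.29, SE 0.051, adjusted p = 8.0e-05 from edgeR). PDGFRL, a gene named for its likeness to PDGF receptors, rose from 4.87 to 8.31 CPM with shPDK1#2 (log2FC 0.78). That call was lost without shPDK1#2 replicate 3 (adjusted p = 0.057). With shPDK1#1 its log2FC was 0.71 and was not called (adjusted p = 0.0749 from edgeR). Between the hairpins neither VEGFA nor PDGFRL was called (edgeR's adjusted p = 0.222 and 0.866). In all, 2 were higher and 2 lower of 13 with shPDK1#1 and 2 higher and 4 lower with shPDK1#2. Of all genes, 3.06% and 26.2% were called with these hairpins. Without shPDK1#1 replicate 3, the 4 called with shPDK1#1 fell to 2.

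Partners of periostin held some of the widest differences of the lists. In OSCs, 8 of 12 tested were higher and 3 lower, beside 63.9% of all genes called, with a median log2FC of 1.04. CCN3, a matricellular gene, rose from 2.45 to 52.5 CPM, LOX, a lysyl oxidase gene for collagen cross-linking, from 32.6 to 572.2 CPM, and TNC, which encodes tenascin-C, from 56.6 to 337.1 CPM. With shPDK1#1, 2 were higher and 2 lower of 13, beside 3.06% of all genes called. With shPDK1#2, 4 were higher and 8 lower, beside 26.2% of all genes called. COL1A2 was among the 4, and its call was favored toward a rise by the filter on low counts. LOX stood at 130.7 CPM with shCtrl, 185.3 with shPDK1#1 and 217.9 with shPDK1#2, a rise called with each hairpin, as it was for COL1A1. The integrin gene ITGB3 stood at 31.4, 22.6 and 18.7 CPM and CCN3 at 44.1, 32.7 and 15.1 CPM in the same order, falls that were called with each hairpin. The fall of CCN3 with shPDK1#1 was not called without shPDK1#1 replicate 3 (adjusted p = 0.0809).

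PDGFRB and POSTN are also known as genes of fibroblasts and pericytes, so markers of other cell types were set beside them. The 10 fibroblast markers summed to 1121 to 1136 CPM with shCtrl, 1205 to 1309 with shPDK1#1 and 1507 to 1651 with shPDK1#2. Most of this was COL1A1, with 912.2 CPM in the mean of shCtrl, and the defining marker DCN was at or under 0.746 CPM in every hairpin library. Of 7 fibroblast markers tested, 2 were higher and 1 lower with shPDK1#1 and 4 higher and 2 lower with shPDK1#2. Over all genes, 3.06% and 26.2% were called, and the marker counts here and below are read beside these shares. The 4 higher with shPDK1#2 were COL1A1, COL3A1, LUM and COL1A2, and the 2 lower were PDPN and FBLN1. All were named after their values were seen. PDPN fell from 27.85 to 15.85 CPM (log2FC −0.81, SE 0.105, adjusted p = 1.35e-06 from edgeR). FBLN1 fell from 181.5 to 159.7 CPM (log2FC −0.19, SE 0.047, adjusted p = 0.0042 from edgeR). LUM, a defining marker, had a mean of 0.409 CPM with shCtrl, 0.509 with shPDK1#1 and 1.84 with shPDK1#2. COL1A2 had 0.288, 0.23 and 1.49 CPM in the same order. Both passed the filter on low counts only through their level with shPDK1#2, so these values are a description without a test. Their calls in the count above were favored toward a rise in the same way. COL3A1, a fibrillar collagen gene, had 4.12 to 5.84 CPM with shCtrl, 17.3 to 20.9 with shPDK1#1 and 82.6 to 90.4 with shPDK1#2, in the order of PDGFRB and POSTN. The part of this in the levels of PDGFRB and POSTN was not tested.

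The 10 pericyte and smooth muscle markers summed to 658.2 to 680.7 CPM with shCtrl, 581.5 to 629.6 with shPDK1#1 and 378.8 to 426.7 with shPDK1#2, the reverse order. Most of each sum was CSPG4 and ANPEP. With shCtrl, shPDK1#1 and shPDK1#2, CSPG4 had means of 367.3, 311.8 and 210.7 CPM and ANPEP 248.5, 241.4 and 140.1. NOTCH3 went the other way (11.9, 12.4 and 14.6 CPM) and was not called with either hairpin. These genes were named after their values were seen. Of the 6 pericyte and smooth muscle markers tested, 1 was lower with shPDK1#1 and 2 were lower with shPDK1#2 (4 were called with only the compared groups in the fit or without shPDK1#1 replicate 2, and 0 with shPDK1#1 without its replicate 3). RGS5, a defining pericyte marker, had means of 0.443, 0.663 and 0.925 CPM and stayed at or under 1.21 CPM. The 6 endothelial markers summed to at most 2.53 CPM in any of the 15 libraries, with CDH5 at 0 in all. The 6 myeloid markers summed to 39.5 to 45.8 CPM with shCtrl, 38.3 to 41.3 with shPDK1#1 and 22.8 to 24.8 with shPDK1#2. Nearly all of this was CD68, a lysosomal protein gene, with means of 39.4, 37.1 and 22.1 CPM. PTPRC, the defining marker, was at 0 with shCtrl and reached at most 0.249 CPM with shPDK1#1 and 0.208 with shPDK1#2. The 8 osteoblast lineage markers, which bear on the labelled osteosarcoma, summed to 2757 to 2845 CPM with shCtrl, 2892 to 3010 with shPDK1#1 and 3955 to 4003 with shPDK1#2. In the other table they summed to 716.8 to 735 CPM in non-OSCs and 1494 to 1538 in OSCs. SPARC and SPP1 led these sums, IBSP was at 0 in every library, and 2 of 5 tested were called higher with shPDK1#2. In OSCs, 2 of 5 tested were higher and 1 was lower, beside 63.9% of all genes called between OSCs and non-OSCs. The lower gene was RUNX2, named after its values were seen, at 37.7 CPM in non-OSCs and 17.3 in OSCs (log2FC −1.11, SE 0.108, adjusted p = 9.3e-09 from edgeR). The part of the pericyte, myeloid and osteoblast lineage markers in the levels of PDGFRB and POSTN was not tested.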

How the data were processed

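RNA was read as paired ends on a NovaSeq instrument. Per the submitters' processing notes and the study's methods, the tools were Trimmomatic 0.39 (trimming), FastQC 0.12.1 (read quality), STAR 2.7.11a (alignment, GRCh38.p14) and RSEM 1.3.3. The deposited values are RSEM's expected counts per gene, which the authors did not normalize. The annotation used for counting is not given in the sources used here. OSCs and non-OSCs formed 1 table and the hairpin libraries another. Columns carried short names, which were matched to conditions by their meaning (S2D as adherent and S3D as sphere culture).

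Fractional values, 6.44% to 7.19% of each library, were rounded to whole counts. In R 4.3.3, edgeR 4.0.16 gave TMM factors, the filter on low counts (filterByExpr by condition) and the quasi-likelihood test, with Benjamini-Hochberg adjustment over all genes and a threshold of 0.05. The 9 hairpin libraries were fitted together. The test was checked on simulated counts, and plots were made with Python 3.11.15 and matplotlib 3.10.9. Replicates differed beyond sampling noise (chi-square from 1.95 to 3.70 per degree of freedom). Symbols, coordinates and exons came from GENCODE 44. RefSeq held upstream sequences of PDGFA (4 starts), PDGFRA (2), PDGFD, PDGFRB and POSTN (1 each), and none was matched for PDGFB and PDGFC.

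The genes and lists were chosen with earlier results of these data known. Named were the 7 genes, PDK1, up to 3 list genes per list and comparison with the largest log2 fold change among those called with a mean of at least 5 CPM, and the 5 genes of at least 10 CPM most like PDGFRB or POSTN. A gene outside this rule is said to have been named after its values were seen. The counts of calls and the log2 fold changes of the named genes were recomputed with DESeq2 1.42.0, with library size as the sole normalization, without the filter, with a minimum of 10 counts in all libraries, with a replicate block, with fewer groups in the fit, and without each library. These runs were added after seeing the data for the marker lists and for the genes named after their values were seen. The shares of ligands and receptors, the ratios of POSTN counts and the correlations were not recomputed. PDGFRB in OSCs and POSTN have no value with the minimum of 10 counts.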

Additional observations from a re-analysis of the deposited data

Results flagged for a closer look

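Set directly against each other, shPDK1#2 and shPDK1#1 gave levels that differed (edgeR, adjusted p under 0.05) for 2 of the 5 PDGF genes tested and 17 named genes of the lists. Over the lists, 22 of 61 genes tested (36.1%) were called, beside 16.3% of all genes. COL1A2, whose call was favored toward a rise by the filter on low counts, was among the 22. The named genes were partly picked for being called in this same comparison, so their number of 17 is a description only. Values are log2 fold changes of shPDK1#2 against shPDK1#1. PDGFC stood at −0.33 and PDGFRA at −0.21, and for PDGFRA the hairpins lay on opposite sides of shCtrl. Among the proteases, PLAU stood at −0.97, FURIN at −0.25 and PLAT at 0.21. Among the effectors, YES1 stood at −0.39, NCK2, an adaptor gene, at −0.28, PIK3CA at −0.28 and FYN at −0.25, and among the attenuators CBL stood at −0.32 and PTPN12 at −0.22. NRP2 stood at −0.75, the lymphatic growth factor gene VEGFC at −0.54, KITLG, which encodes the ligand of KIT, at −0.49 and FLT1 at −0.45. Of the partners of periostin, CCN3 stood at −1.11 and the integrin gene ITGAV at −0.29, both lower with shPDK1#2, and COL1A1 at 0.33 and LOX at 0.23, both higher. KITLG was not called with DESeq2 (adjusted p = 0.0641), with only the compared groups (0.0571), or without shPDK1#1 replicate 1 (0.124), shPDK1#1 replicate 3 (0.172) or shPDK1#2 replicate 2 (0.222). NCK2 was not called without shPDK1#1 replicate 2 (0.0569) or shPDK1#2 replicate 2 (0.0672), PIK3CA not without shPDK1#2 replicate 2 (0.0756), PTPN12 not without shPDK1#1 replicate 1 (0.0855) or shPDK1#2 replicate 2 (0.0562), and PLAT not without shPDK1#1 replicate 1 (0.0541), shPDK1#2 replicate 2 (0.113) or shPDK1#2 replicate 3 (0.0513). The knockdown of PDK1 itself also differed between the hairpins, and the part of that in these differences was not tested.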

How the results depend on the processing

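Under all alternatives 4 of the PDGF genes were called in OSCs and 0 with shPDK1#1. With shPDK1#2 between 2 and 4 were called, and between the hairpins 2 or 3. When single libraries were left out, the genes called over the whole table with shPDK1#1 ranged from 245 to 508 (446 with all libraries), and the list genes called with shPDK1#1 from 5 to 10 (10 with all). The lowest counts, 245 and 5, came without shPDK1#1 replicate 3, and the whole table also gave 270 without shCtrl replicate 1 and 282 without shCtrl replicate 2. Signs turned in differences that were not called, always when 1 library was left out, and the cause was not tested. In OSCs against non-OSCs the log2 fold change of PDGFD then ranged from −0.0433 to 0.73 and that of PDGFRB from −0.67 to 0.28. Against shCtrl, PDGFA with shPDK1#1 ranged from −0.097 to 0.068, PDGFD with shPDK1#1 from −0.078 to 0.51 and PDGFD with shPDK1#2 from −0.19 to 0.14. Between the hairpins PDGFD ranged from −0.54 to 0.048. Of the fibroblast markers with shPDK1#1, LUM ranged from −0.27 to 0.63 and COL1A2 from −0.75 to 0.12. PDGFA between the hairpins was called without shPDK1#1 replicate 3 (adjusted p = 0.041). Same-numbered replicates showed no marked shared deviation (correlations −0.0539 to 0.0948). This cannot exclude that they were prepared together, which the labels do not give. With a replicate block, the adjusted p of PDGFRA with shPDK1#2 was 0.0379 in place of 0.0539, and no other call on a PDGF gene changed. The fitted log2 fold change of POSTN, which depends on the few shCtrl counts, ranged over all alternatives from 2.52 to 3.61 with shPDK1#1 and from 4.21 to 5.30 with shPDK1#2. Depth limits PDGFD, PDGFRB and POSTN most, with 0 to 28 counts per library in OSCs and non-OSCs.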

Other observations

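The genes whose levels followed PDGFRB and POSTN most closely were looked up over the 15 libraries, among 9850 genes of at least 10 CPM in each table, from log2 CPM centred on the mean of each table. Points of one condition and one table share culture and library preparation, the genes were ranked on these same values, and the correlations are a description only. For PDGFRB the highest Pearson correlations were those of MDM4 (0.91), an inhibitor of p53, EPB41L2 (0.90), a membrane skeleton gene, MOV10 (0.86), an RNA helicase gene, DAAM2 (0.85), a formin gene of the Wnt pathway, and KIAA1671 (0.84). EPB41L2 had group means of 164.7 CPM with shCtrl, 182.1 with shPDK1#1 and 228.1 with shPDK1#2, and DAAM2 had 65.3, 68.5 and 96.0. The span of each was far narrower than that of PDGFRB. For POSTN the highest were DDOST (0.96), a subunit gene of the oligosaccharyltransferase, FZD4 (0.94), a Wnt receptor gene, FOXO1 (0.93), a transcription factor gene, GAPDH (0.93), a glycolytic enzyme gene, and LDOC1 (0.92). FZD4 had 19.0, 26.0 and 37.0 CPM and LDOC1 57.9, 77.5 and 93.5 CPM with shCtrl, shPDK1#1 and shPDK1#2. In the same order, DDOST had 260.5, 286.6 and 318.8 CPM and GAPDH 3356, 3624 and 3865. The span of each was far narrower than that of POSTN. PDGFRB and POSTN themselves had a correlation of 0.78, and POSTN rests on 0 to 6 counts in each library of non-OSCs, OSCs and shCtrl.

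TGFBI, which encodes a matrix protein that is a paralog of periostin, is set beside POSTN here and was named after its values were seen. It was higher in OSCs than in non-OSCs (log2 fold change 1.44, SE 0.037) and lower with shPDK1#2 than with shCtrl (−0.18, SE 0.031), and with shPDK1#1 it was not called (−0.02, edgeR's adjusted p = 0.8). POSTN had 1 count in all in OSCs against 13 in non-OSCs, too few to be tested. It was higher with both hairpins, the values on which it was picked, so the difference between the 2 genes is a description only.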
